A study of Mus musculus with 8 samples.

Results

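The nuclear-encoded subunits of the mitochondrial respiratory chain were examined in mouse liver with and without C2-AKT in hepatocytes. They were taken from the gene table by symbol (Nduf followed by a, b, c, s or v and a number, Sdha to Sdhd, Uqcr, Cox4 to Cox8, and Atp5), keeping genes annotated as protein_coding. The pattern matched 97 symbols, of which 11 were not protein_coding, and left 86 genes of the 45777 in the table: 39 of complex I, 4 of complex II, 8 of complex III, 18 of complex IV and 17 of complex V. Of these, 80 were abundant enough to test. None of the 80 was called higher or lower in C2-AKT livers, and for 77 of them the 95% interval of the difference lay within 1.5-fold in either direction. Larger differences among the subunits were seen between isoform genes and between single libraries.

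The respiratory chain passes electrons from NADH and succinate through complexes I and II to ubiquinone, on to cytochrome c through complex III, and to oxygen through complex IV. Complexes I, III and IV pump protons across the inner mitochondrial membrane, and complex V, the ATP synthase, uses that gradient to make ATP. In hepatocytes the chain takes up the electrons released when fatty acids are oxidised. A small core of subunits is encoded by mitochondrial DNA, and all others come from nuclear genes, many of which are known targets of the transcription factors NRF1, GABPA, ERRα and YY1 and the PGC-1 coactivators.

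RNA was taken from whole liver of 8 male C57BL6 mice fed a high-fat diet for 10 weeks, starting when they were 8 weeks old. In 4 of them C2-AKT, a form of the insulin-signalling kinase AKT placed at the ROSA26 locus, was switched on by Alb-Cre, a Cre recombinase driven by the promoter of the hepatocyte gene albumin. The other 4 were controls, whose genotype is given as wild type with no C2-AKT. The labels used here do not say whether the controls carried Cre or which AKT isoform was used. The design gives a single comparison, C2-AKT (n = 4) against control (n = 4), which asks how the hepatic transcriptome differs with C2-AKT in obese mice. Libraries are named by the replicate numbers in their titles, which run from 2 to 5 in each group. The titles also hold a middle number (2 for all controls, 4 for all C2-AKT mice). The labels do not give its meaning, and it cannot be told apart from genotype. Since nothing more is said of how the replicates relate, p-values here cover only the spread among these 8 libraries.

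Counts per library summed to between 51.4 M and 63.8 M, where M stands for mega, the unit of CPM (counts per M of counts). Before scaling, 3 counts in a library correspond to about 0.05 CPM. The CPM of genes and markers given here are also scaled between libraries by TMM, so they are not exact shares of a library's counts. The 10 hepatocyte markers summed to 80449 to 105096 CPM over the controls and 89691 to 107896 CPM over the C2-AKT libraries, and all 10 were detected. C2-AKT replicate 5 also held pancreatic transcripts: its 16 acinar markers summed to 132493 CPM, against 7.81 to 30.4 CPM in the other 7 libraries, and its 7 endocrine markers summed to 71.2 CPM, against 0. The summed markers of Kupffer cells, endothelial cells, stellate cells, cholangiocytes, erythroid cells and lymphocytes overlapped between the groups. The fits across genes and the summed level of the subunits were also computed without C2-AKT replicate 5. The titles of the libraries end in "_1" for control replicates 2, 3 and 4 and C2-AKT replicates 3 and 4, in "_2" for C2-AKT replicate 5, and have no such ending for control replicate 5 and C2-AKT replicate 2. What the ending stands for is not stated in the labels used here.

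Some promoters of these genes hold short strings that nuclear regulators of mitochondrial genes are known to recognise. RefSeq promoter windows, each from 250 bases before to 50 bases after a transcription start, were found for 69 of the members and gave 74 windows. The NRF1 core GCGCATGCG was present on either strand in 8 of the 74 windows (10.8%), against 1.75% of all 32851 windows of the table and 3.14% of the 14827 windows of genes tested here. The ETS string CCGGAAG, bound by GABPA, was in 17 (23%), against 8.86% of all windows and 15.6% of those of tested genes. The ERR string TCAAGGTCA was in 2 (2.7%), against 0.423% and 0.324%. The YY1 string AAGATGGCG was in 7 (9.46%), against 1.4% and 2.59%. The GABPA and YY1 strings can overlap by the letters AAG. At least 1 of the 4 strings was found in 28 windows (37.8%), against 11.7% of all windows and 20.3% of those of tested genes, and the other 46 windows held none. A match is a description of the letters and not evidence of binding.

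The following 5 windows show these strings in a gene of complex II, a gene of complex III and 2 liver isoform genes of complex IV, together with Cox8b, the muscle counterpart of Cox8a, in whose window none of the 4 strings was found. A window without a match is not particular to muscle isoforms: the windows of Cox5a, Cox5b, Cox7a2, Cox7a2l, Cox7b and Cox7c, all expressed in liver, held none either. Capitals mark matches to the strings on either strand. Each is written 5′ to 3′ in the direction of transcription, from the GRCm38.p6 assembly, and all 5 genes are on the minus strand, with windows at chr9:50603800-50604099 for Sdhd, chr10:80406772-80407071 for Uqcr11, chr5:115348909-115349208 for Cox6a1, chr19:7217567-7217866 for Cox8a and chr7:140900397-140900696 for Cox8b.
Sdhd: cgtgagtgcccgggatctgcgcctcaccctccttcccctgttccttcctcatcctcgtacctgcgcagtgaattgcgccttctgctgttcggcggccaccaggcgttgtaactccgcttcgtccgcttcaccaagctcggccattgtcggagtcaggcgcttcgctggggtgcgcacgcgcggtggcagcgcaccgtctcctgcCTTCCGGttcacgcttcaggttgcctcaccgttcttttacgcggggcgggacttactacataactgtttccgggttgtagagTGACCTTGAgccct
Uqcr11: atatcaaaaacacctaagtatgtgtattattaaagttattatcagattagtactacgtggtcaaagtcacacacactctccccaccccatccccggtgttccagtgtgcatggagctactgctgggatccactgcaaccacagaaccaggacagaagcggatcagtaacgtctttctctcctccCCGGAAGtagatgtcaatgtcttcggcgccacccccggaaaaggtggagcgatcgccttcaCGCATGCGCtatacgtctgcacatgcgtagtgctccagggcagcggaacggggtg
Cox6a1: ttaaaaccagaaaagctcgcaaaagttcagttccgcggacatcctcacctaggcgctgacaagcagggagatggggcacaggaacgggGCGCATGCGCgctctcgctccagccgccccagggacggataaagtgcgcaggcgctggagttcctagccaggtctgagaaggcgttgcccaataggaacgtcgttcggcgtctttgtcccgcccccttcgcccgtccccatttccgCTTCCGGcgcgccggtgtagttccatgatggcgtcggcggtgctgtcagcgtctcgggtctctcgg
Cox8a: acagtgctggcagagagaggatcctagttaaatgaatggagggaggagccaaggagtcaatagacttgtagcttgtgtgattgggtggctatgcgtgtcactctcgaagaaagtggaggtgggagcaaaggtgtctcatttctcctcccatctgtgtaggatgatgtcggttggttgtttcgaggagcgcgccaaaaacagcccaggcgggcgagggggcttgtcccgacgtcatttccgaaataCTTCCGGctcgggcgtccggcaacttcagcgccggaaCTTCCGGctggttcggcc
Cox8b: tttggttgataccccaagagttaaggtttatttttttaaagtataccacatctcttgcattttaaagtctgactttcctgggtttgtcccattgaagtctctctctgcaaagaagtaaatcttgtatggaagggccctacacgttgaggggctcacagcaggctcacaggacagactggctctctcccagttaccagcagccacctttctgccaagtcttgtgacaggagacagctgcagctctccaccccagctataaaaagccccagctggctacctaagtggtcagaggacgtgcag
In Sdhd the capitals are a GABPA string followed by an ERR string, in Uqcr11 a GABPA string followed by an NRF1 core, in Cox6a1 a pair of overlapping NRF1 cores followed by a GABPA string, and in Cox8a a pair of GABPA strings.

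Levels were compared between genes in the deposited TPM, which is scaled to transcript length. The most abundant subunit transcript was Atp5b, the catalytic β subunit of the ATP synthase (mouse chromosome 10), at 729 ± 83.4 TPM (SD, n = 8). It was followed by Ndufa4 at 506 ± 44.2 TPM, Atp5a1, the α subunit of the ATP synthase, at 499 ± 78.4 TPM, Cox4i1 at 469 ± 39.6 TPM and Atp5g3 at 412 ± 45.7 TPM. Ndufa4 was above Cox4i1 in 8 of 8 libraries. Atp5a1, which ran from 385 to 589 TPM, was not ordered against them: Ndufa4 was above it in 3 of 8 libraries, and it was above Cox4i1 in 6 of 8. The median level was 97 TPM over the 39 complex I genes, 186 TPM over the 4 of complex II, 176 TPM over the 8 of complex III, 303 TPM over the 12 tested genes of complex IV and 236 TPM over the 17 of complex V.

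**Figure D1:**
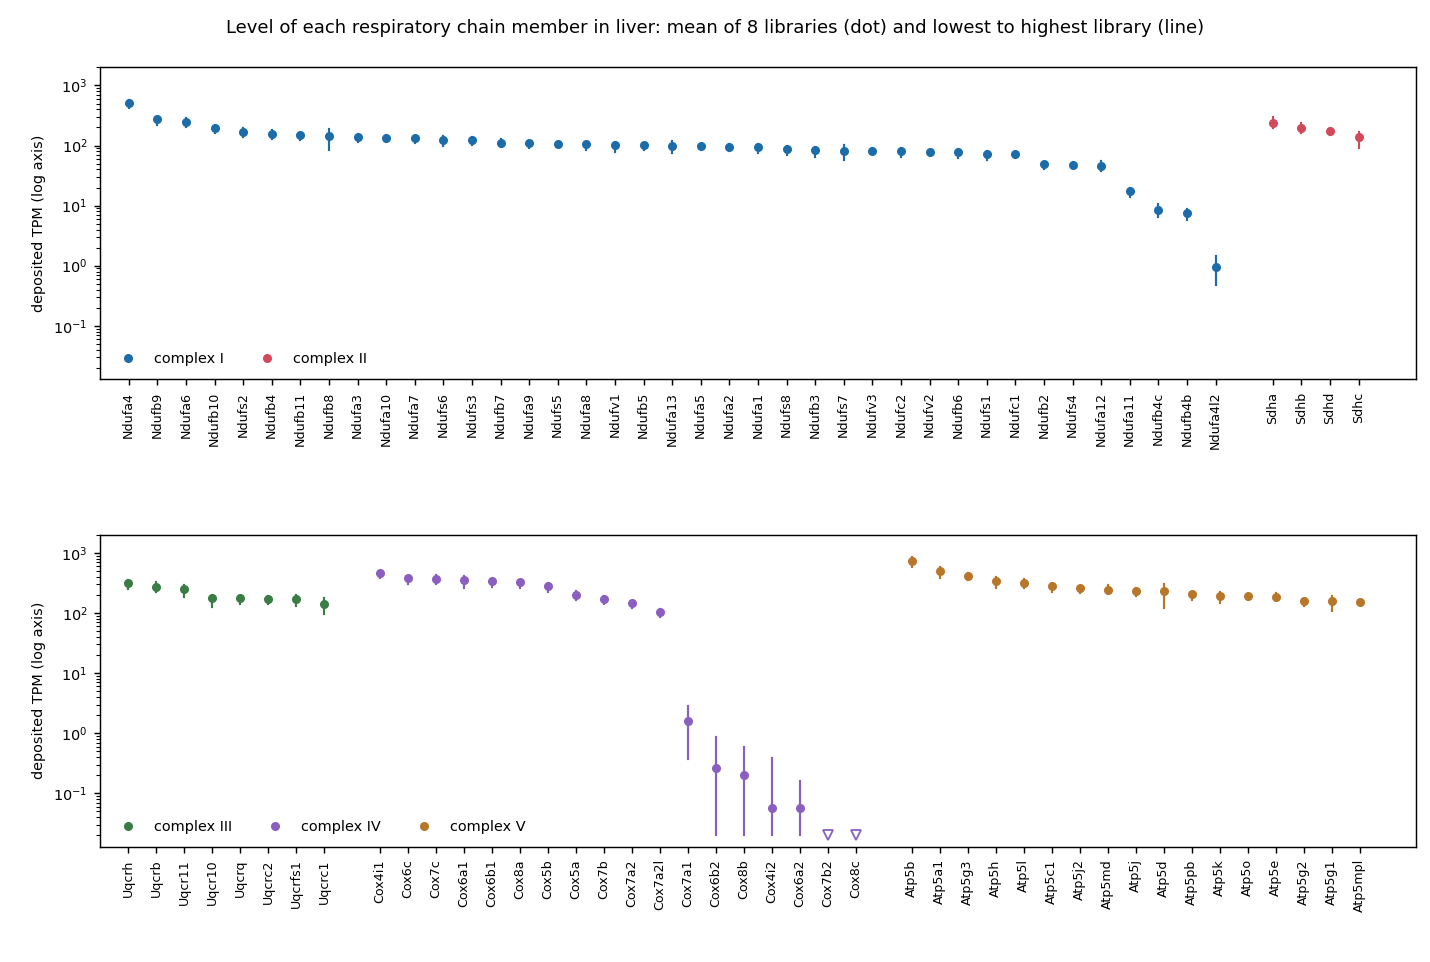
Each dot is a subunit's mean deposited TPM over 8 libraries (log axis), each line runs from its lowest to its highest library, and colours mark the complexes; lines that reach 0.02 include libraries listed at 0, and open triangles mark Cox7b2 and Cox8c, listed at 0 in all 8. Most subunits of a complex lie close together, and 8 subunits, of which 7 belong to complex IV, lie below 2 TPM.

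Subunits of complexes II, III and V differed far less from each other than liver isoform genes did from muscle, lung or testis ones. The highest mean TPM was 1.76, 2.18 and 4.73 times the lowest in these complexes. Among the complex I genes by symbol it was 67 times the lowest of those of at least 5 TPM. That ratio sets Ndufa4, at 506 TPM, against Ndufb4b. Ndufa4 is counted here by its name, though it is known to be a subunit of complex IV. In complex II, the succinate dehydrogenase that also works in the citric acid cycle, the flavoprotein Sdha was highest at 241 ± 32.5 TPM (SD, n = 8), and the membrane anchor Sdhc was lowest at 137 ± 31.7 TPM. In complex III, the span ran from the core protein Uqcrc1 at 144 ± 29.8 TPM to the hinge protein Uqcrh at 313 ± 32.1 TPM. In complex V, the lowest mean was that of the small membrane subunit Atp5mpl, 154 ± 8.86 TPM, which was not separated from those of Atp5g1 and Atp5g2, each at 156 TPM. Complex I, the NADH dehydrogenase, was the only one of these 4 with members below 100 TPM, and its lowest were Ndufa4l2 at 0.935 ± 0.368 TPM, Ndufb4b at 7.56 ± 1.21 TPM and Ndufb4c at 8.51 ± 1.38 TPM. Ndufb4, whose transcripts share 33.4% of their stretches of 100 bases with other genes (Ndufb4c most of all), stood at 154 ± 22.3 TPM, and reads of these 3 genes may have been divided between them.

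Cytochrome c oxidase, complex IV, has subunits with separate isoform genes for liver and for contractile or other tissues, and liver showed one side of each pair. Cox6a1, the liver isoform of subunit 6a, stood at 353 ± 53.8 TPM (SD, n = 8), and Cox6a2, the heart and muscle isoform, had 10 counts in all 8 libraries together. Cox8a was at 327 ± 28.7 TPM, and Cox8c was listed at 0 in every library. Cox4i1 was at 469 ± 39.6 TPM, and Cox4i2, known from lung, had 12 counts in all, 10 of them in C2-AKT replicate 5, which also held the pancreatic markers. Cox6b1 was at 344 ± 30.1 TPM, against 0.266 ± 0.305 TPM for Cox6b2, the testis isoform. Cox7b was at 172 ± 18.2 TPM, and Cox7b2 was listed at 0 in every library. A count of 0 in a library allows up to 3 counts, or about 0.05 CPM.

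Subunit 7a was the pair with the clearest second member. Cox7a2 was at 147 ± 11.7 TPM and Cox7a2l, a related protein known for joining complexes III and IV into supercomplexes, at 103 ± 9.71 TPM. Cox7a1, the muscle isoform, was detected in every library, at 1.54, 1.45, 2.19 and 1.12 TPM in control replicates 2 to 5 and 1.58, 2.8, 1.66 and 0.368 TPM in C2-AKT replicates 2 to 5. The range of the controls lay inside that of the C2-AKT libraries, and the lowest value was that of C2-AKT replicate 5. The 11 muscle markers summed to 0.479 to 1.18 CPM over the controls and 0.697 to 0.839 CPM over the C2-AKT libraries, with Myh2 and Myh6 at 0 in all 8. The 8 adipocyte markers summed to 34.5 to 76.2 CPM over the controls and 15.8 to 41.9 CPM over the C2-AKT libraries, with Ucp1 at 0 in all 8. The part of such cells in the level of Cox7a1 was not tested.

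Cox8b, the muscle isoform of subunit 8, had 0, 6, 8 and 8 counts in control replicates 2 to 5 and 0 in all 4 C2-AKT libraries. That is 0, 0.112, 0.124 and 0.15 CPM in the controls. It was too low for the test across genes. In an edgeR fit with no filter on low counts it was 1 of 84 subunits with an unadjusted p below 0.05, against 1149 of 24573 genes. With DESeq2 it was again 1 of 84, against 922 of 24351 genes. No subunit passed after adjustment, the smallest adjusted p being 0.769 with edgeR and 0.665 with DESeq2.

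Ndufa4, named for complex I and known to be a subunit of complex IV, was at 506 ± 44.2 TPM, against 0.935 ± 0.368 TPM for Ndufa4l2, a related gene known to be induced in hypoxia. The 3 genes for subunit c of the ATP synthase, which encode the same mature protein, were all expressed: Atp5g3 at 412 ± 45.7 TPM, Atp5g2 at 156 ± 14.2 TPM and Atp5g1 at 156 ± 24.1 TPM. Atp5g3 was above both in every library, and Atp5g1 and Atp5g2 could not be ordered. Atp5g2 shares 34.7% of its stretches of 100 bases with another gene, so its level is uncertain.

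**Figure D2:**
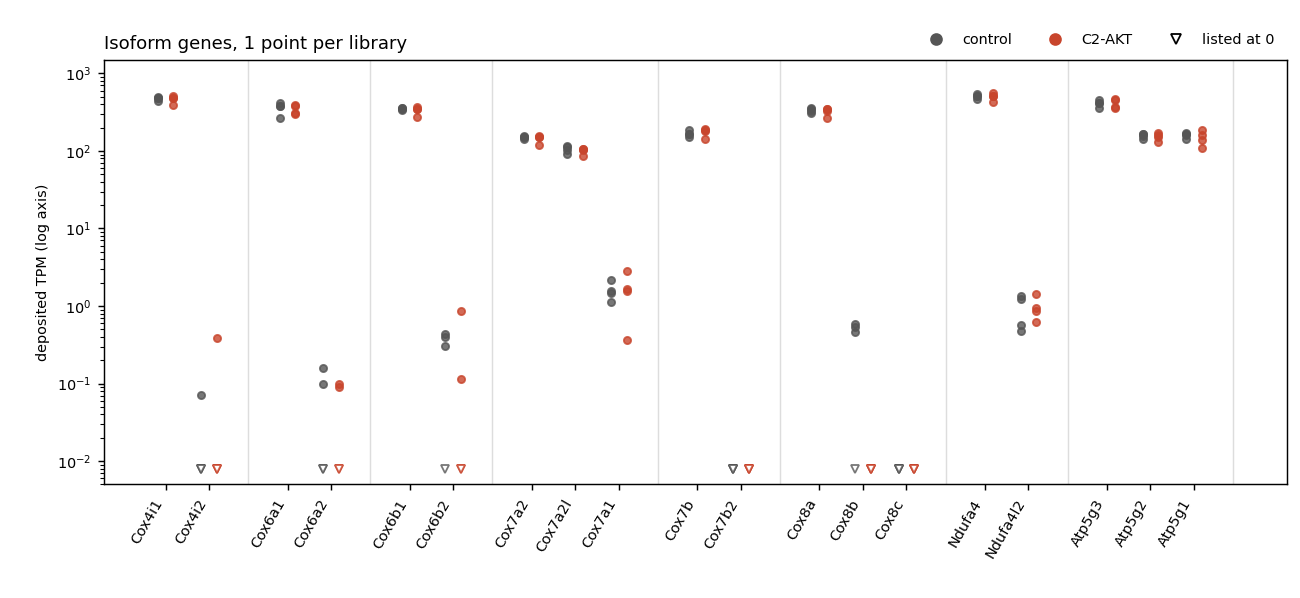
Points are single libraries (grey, 4 control; red, 4 C2-AKT) on a log axis of deposited TPM, grouped by isoform family, and open triangles mark libraries listed at 0. In each cytochrome c oxidase family the genes expressed in liver lie well above the muscle, lung or testis isoforms, which are below 3 TPM; Cox8b has points in 3 control libraries and none in C2-AKT libraries.

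The comparison of C2-AKT with control livers gave 0 subunits called higher and 0 called lower, by edgeR's quasi-likelihood test with Benjamini-Hochberg adjustment over all 15686 genes tested and a threshold of 0.05. Over all genes 0 were called higher (0%) and 4 lower (0.0255%), so against that background the absence of calls is not particular to the subunits. At an unadjusted p under 0.05 there were 0 of 80 subunits, against 805 of all genes (5.13%). No subunit had groups that did not overlap in CPM, against 467 of all genes (2.98%). By DESeq2 the count of subunits called was also 0, as it was under each of the 22 other settings run. In bulk liver, fewer cells of a type and less RNA per cell cannot be told apart, for these and all later values.

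The estimates were small as well as uncalled. The median log2 fold change (C2-AKT over control) was -0.04 over the 80 subunits and -0.01 over all genes, with 28 subunits above 0 and 52 below. The lowest was -0.16 (Uqcr10) and the highest 0.19 (Ndufb4b). The 95% intervals lay within 1.25-fold for 51 subunits, within 1.5-fold for 77 and within 2-fold for 79. The 3 that reached past 1.5-fold were Ndufb4b, Ndufa4l2 and Cox7a1, all below 10 TPM. The median half-width of the interval was 0.22 on the log2 scale, against 0.37 over all genes and 0.25 over the 5642 genes in the same range of CPM (17 to 785). The median SD of log2 CPM within a group was 0.12 for the subunits, 0.24 for all genes and 0.16 for the genes in that range.

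**Figure D3:**
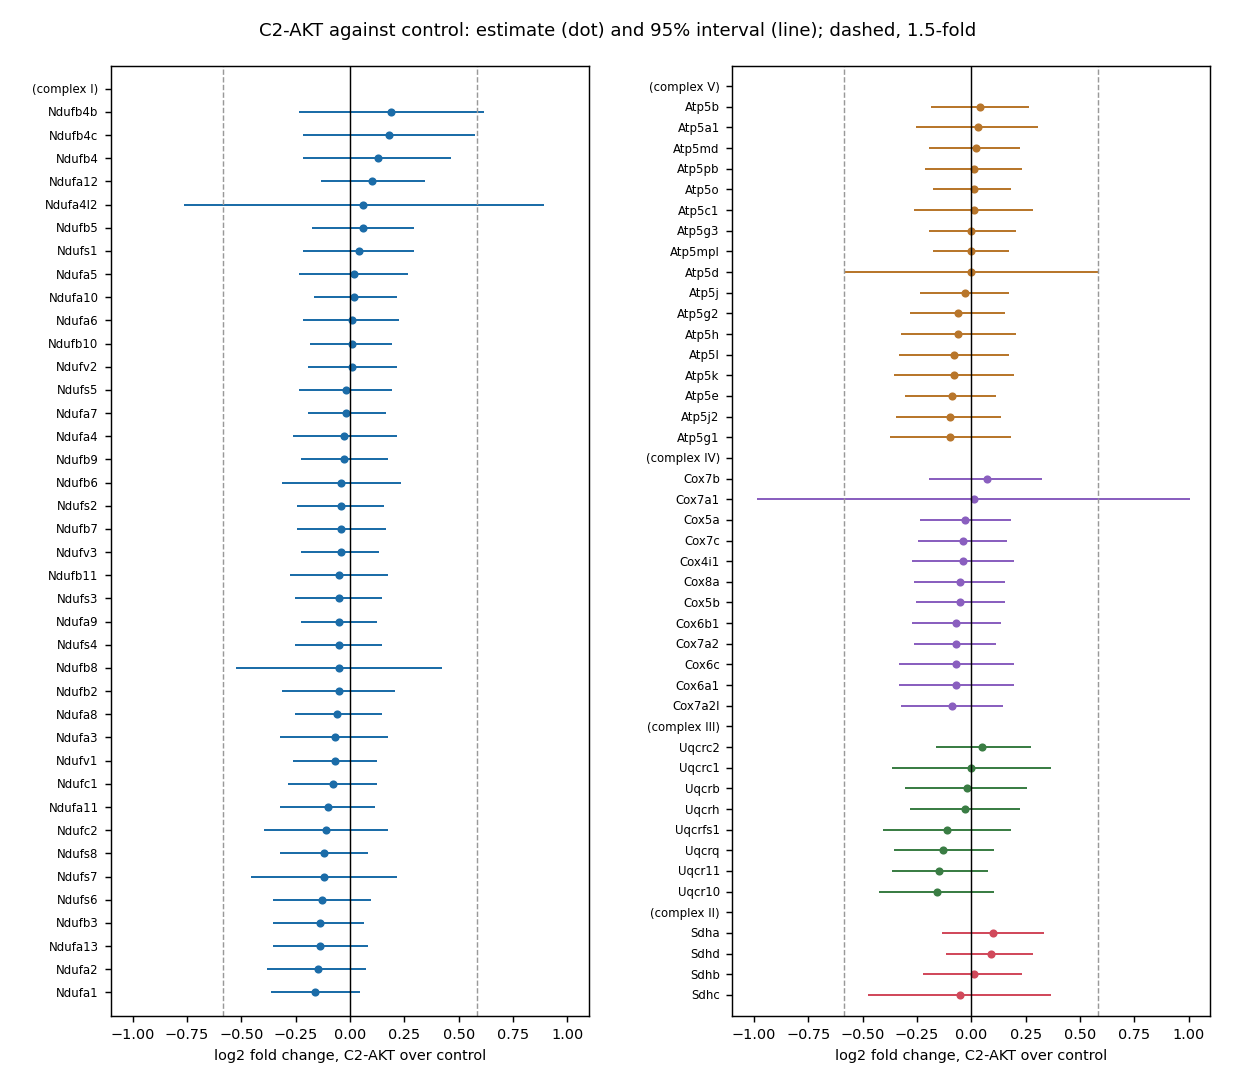
Dots are the log2 fold changes of the 80 tested subunits (C2-AKT over control, 4 libraries each, edgeR), lines their 95% intervals, colours the complexes, and dashed lines mark 1.5-fold. Every interval includes 0, and those of Ndufa4l2 and Cox7a1 are the widest.

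Complex I takes electrons from NADH and holds 39 of the subunits. Its median log2 fold change was -0.04, with 12 above 0 and 27 below. Ndufa1, an accessory subunit of the membrane arm that complex I needs for assembly, had the smallest p of all subunits. Its CPM was 28.8, 26.2, 27.7 and 29.5 in control replicates 2 to 5 and 26.7, 26.5, 22.3 and 24.8 in C2-AKT replicates 2 to 5. The 2 groups overlapped, with C2-AKT replicates 4 and 5 below every control. The log2 fold change was -0.16 ± 0.09 (SE; 95% interval -0.36 to 0.04; edgeR adjusted p = 0.9947).

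Ndufb3, another accessory subunit of the membrane arm, read 35.7, 38.8, 40.4 and 38.9 CPM across control replicates 2 to 5 and 37.9, 37.8, 32.2 and 31.3 CPM across C2-AKT replicates 2 to 5, with a log2 fold change of -0.14 ± 0.09 (SE). Here too C2-AKT replicates 4 and 5 were the lowest and the other 2 lay within the controls. Ndufa2, an accessory subunit of the matrix arm, read 35.3, 29.4, 33.8 and 38.7 CPM across control replicates 2 to 5 and 30.6, 32.8, 28.1 and 31.9 CPM across C2-AKT replicates 2 to 5. Its log2 fold change was -0.15 ± 0.10 (SE), and only C2-AKT replicate 4 lay below every control. Ndufa4 had means of 146 ± 15.7 CPM (control) and 144 ± 11.7 CPM (C2-AKT; SD, n = 4 each), with an interval of -0.26 to 0.21 on the log2 scale.

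Complex II had the highest median of the 5 complexes, 0.05, over 4 genes of which 3 were above 0. Sdha read 386, 422, 372 and 342 CPM across control replicates 2 to 5 and 389, 414, 434 and 401 CPM across C2-AKT replicates 2 to 5. Control replicate 5 was below all others, and the groups overlapped. The log2 fold change was 0.10 ± 0.10 (SE; 95% interval -0.13 to 0.33; edgeR adjusted p = 0.9999). Sdhd, the second membrane anchor, read 122, 114, 128 and 132 CPM across control replicates 2 to 5 and 138, 138, 124 and 128 CPM across C2-AKT replicates 2 to 5, a log2 fold change of 0.09 ± 0.09 (SE). Sdhc had a log2 fold change of -0.05 ± 0.19 (SE). Its control replicate 5 and C2-AKT replicate 2 stood at 65.4 and 65.9 CPM and the other 6 libraries between 93.8 and 110 CPM.

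Complex III, the cytochrome bc1 complex, had the lowest median, -0.07, with 2 of 8 genes above 0. Its smallest p-values were those of 3 small subunits. Uqcr11 read 64.7, 64.8, 70.3 and 69 CPM across control replicates 2 to 5 and 65.4, 68.1, 55.7 and 53.7 CPM across C2-AKT replicates 2 to 5, with a log2 fold change of -0.15 ± 0.10 (SE; 95% interval -0.36 to 0.07; edgeR adjusted p = 0.9999). Uqcr10 read 48, 43, 52.2 and 53.7 CPM across control replicates 2 to 5 and 49.4, 49.2, 38.8 and 38.5 CPM across C2-AKT replicates 2 to 5, with a log2 fold change of -0.16 ± 0.12 (SE). Uqcrq read 166, 145, 164 and 165 CPM across control replicates 2 to 5 and 164, 154, 130 and 138 CPM across C2-AKT replicates 2 to 5. In all 3 genes C2-AKT replicates 4 and 5 were the lowest libraries and C2-AKT replicates 2 and 3 lay within the control range.

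Complex IV, which reduces oxygen, had a median of -0.05 over its 12 tested genes, 2 of them above 0. Cox4i1 had means of 203 ± 17.2 CPM (control) and 198 ± 16.1 CPM (C2-AKT; SD, n = 4 each). Cox7a2 had the smallest p of the complex. It read 69.5, 64.3, 68.4 and 71.9 CPM across control replicates 2 to 5 and 70.5, 66.5, 61.5 and 62.1 CPM across C2-AKT replicates 2 to 5. The 95% interval of its log2 fold change was -0.26 to 0.11. Cox7a2l and Cox6b1 followed, with log2 fold changes of -0.09 ± 0.10 and -0.07 ± 0.09 (SE), and for both the groups overlapped.

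Complex V, the ATP synthase, had a median of 0.00, with 9 of 17 genes above 0 and 8 below. Atp5b read 760, 783, 808 and 747 CPM across control replicates 2 to 5 and 806, 839, 812 and 730 CPM across C2-AKT replicates 2 to 5. C2-AKT replicate 5 was the lowest of the 8 and C2-AKT replicates 3 and 4 were above every control. The log2 fold change was 0.04 ± 0.10 (SE; 95% interval -0.18 to 0.26). Atp5e, the small ε subunit, had the smallest p of the complex. It read 49.3, 40.2, 46.1 and 44.2 CPM across control replicates 2 to 5 and 41.3, 44.9, 38.4 and 43.9 CPM across C2-AKT replicates 2 to 5, with a log2 fold change of -0.09 ± 0.09 (SE; 95% interval -0.30 to 0.11). Atp5j2, a membrane subunit, and Atp5g1 both had a log2 fold change of -0.10, with SE of 0.10 and 0.13. Of the genes for subunit c, Atp5g3 had means of 170 ± 10.1 CPM (control) and 170 ± 7.85 CPM (C2-AKT; SD, n = 4 each).

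Other genes of the same pathway gave few differences. The 13 subunits encoded by mitochondrial DNA had a median log2 fold change of 0.01, with 0 called and 0 at an unadjusted p under 0.05. Among them ND5 of complex I ran from 5618 to 7097 CPM in control and from 7071 to 7890 CPM in C2-AKT libraries, a log2 fold change of 0.21 ± 0.12 (SE; 95% interval -0.04 to 0.47; edgeR adjusted p = 0.9947). COX1, the catalytic core of complex IV, had means of 27687 ± 3145 CPM (control) and 27831 ± 2692 CPM (C2-AKT; SD, n = 4 each). The 13 transcripts took 7.09% of all counts in C2-AKT replicate 5 and 8.28% to 9.86% in the other libraries, and the 86 nuclear subunits 0.65% and 0.754% to 0.868%. The 4 subunits and carriers outside the symbol pattern (Cyc1, Ndufab1, Cycs and Atpif1) had a median of 0.05, and 0 were called.

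Of 48 assembly factors 47 were tested, with a median of -0.01, and 0 were called. An unadjusted p under 0.05 was found for 2 of them (4.26%, against 5.13% of all genes), and in both the groups did not overlap. They are given as values, since that share is no larger than the background. Cox19, a copper-handling protein needed for complex IV assembly in yeast, read 26.1, 27.6, 23.1 and 24.7 CPM across control replicates 2 to 5 and 20.9, 20.7, 20.9 and 19.5 CPM across C2-AKT replicates 2 to 5. Every C2-AKT library was below every control, with a log2 fold change of -0.31 ± 0.09 (SE; edgeR adjusted p = 0.737). Coa4, another factor linked to complex IV assembly, read 4.43, 4.12, 5.18 and 5.13 CPM across control replicates 2 to 5 and 3.36, 3.4, 3.72 and 3.74 CPM across C2-AKT replicates 2 to 5, with a log2 fold change of -0.41 ± 0.13 (SE; edgeR adjusted p = 0.787). Sco2, a further copper chaperone of complex IV, overlapped between groups, with a log2 fold change of -0.87 ± 0.43 (SE; 95% interval -1.84 to 0.10).

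Among 21 regulators of mitochondrial gene expression the median was 0.00, and 0 were called by edgeR. An unadjusted p under 0.05 was found for 2 of the 21, Esrrg and Twnk, against 5.13% of all genes. The groups did not overlap in 2.98% of all genes. Whether the regulators exceed that background was not tested, and the 2 genes are given as values. Esrrg, which encodes the nuclear receptor ERRγ, read 3.89, 2.11, 3.85 and 3 CPM across control replicates 2 to 5 and 5.75, 7.59, 6.04 and 4.61 CPM across C2-AKT replicates 2 to 5. The groups did not overlap, and the log2 fold change was 0.90 ± 0.22 (SE; 95% interval 0.41 to 1.39; edgeR adjusted p = 0.611). DESeq2's Wald test placed its adjusted p at 0.0467, the only gene of these lists it called, among 29 called higher in the whole table. Under every other setting its adjusted p was at least 0.258. Twnk, the helicase that replicates mitochondrial DNA, read 30.7, 29.7, 32.3 and 26.9 CPM across control replicates 2 to 5 and 26.4, 25.3, 24 and 24.7 CPM across C2-AKT replicates 2 to 5, with a log2 fold change of -0.26 ± 0.09 (SE; edgeR adjusted p = 0.832), and every C2-AKT library lay below every control.

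The coactivator gene Ppargc1a had a log2 fold change of 0.28 ± 0.13 (SE) and its relative Ppargc1b one of -0.53 ± 0.25 (SE), with overlapping groups and edgeR adjusted p of 0.968 and 0.9940. Nrf1 (-0.15 ± 0.09), Esrra (-0.05 ± 0.24) and Tfam (0.02 ± 0.09), the gene for the transcription factor of mitochondrial DNA, also overlapped. Citric acid cycle enzymes (13 tested, median 0.04) and proteins of the mitochondrial membranes and import (20 tested, median 0.00) had 0 called genes. Their smallest p-values were those of Ogdh, a subunit of the 2-oxoglutarate dehydrogenase complex (log2 fold change 0.14 ± 0.08, SE), and Slc25a4, an ADP/ATP carrier (-0.25 ± 0.14, SE). In Ogdh the groups did not overlap (149 to 164 CPM in control, 169 to 180 CPM in C2-AKT libraries). Slc25a5 of the second list did not overlap either (0.11 ± 0.09, SE), and Slc25a4 did. Over all genes 2.98% did not overlap.

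The subunits varied together from library to library, by more than the groups differed. Against each gene's mean over 8 libraries, the median log2 CPM of the 80 subunits was 0.01, -0.07, 0.04 and 0.12 in control replicates 2 to 5 and 0.08, 0.07, -0.11 and -0.08 in C2-AKT replicates 2 to 5. Over the 5642 genes in the same range of CPM it was -0.01 to 0.04. Over all genes tested it was 0.00 to 0.02, where the scaling holds it near 0. The scaling bears on the 5642 genes as well, so their median does not show how far a set of 80 genes commonly varies. The group means were 0.03 ± 0.08 and -0.01 ± 0.10 (SD, n = 4 each). Complexes I, III, IV and V had similar medians in each library. Complex II, with only 4 genes, lay apart: it was at -0.08 in control replicate 5, where the other 4 complexes were at 0.11 to 0.14, and at 0.01 in C2-AKT replicates 4 and 5, where they were at -0.15 to -0.07. The sum of TPM over the 86 subunits averaged 14933 ± 456 (control) and 14646 ± 1845 (C2-AKT; SD, n = 4 each), where C2-AKT replicate 3 was highest at 16541 and C2-AKT replicate 5 lowest at 12210. Without C2-AKT replicate 5 the C2-AKT mean was 15458 ± 1072 (SD, n = 3), above that of the controls, so the direction of this difference rests on that library. The part of the pancreatic transcripts of that library in its lower sum was not tested.

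**Figure D4:**
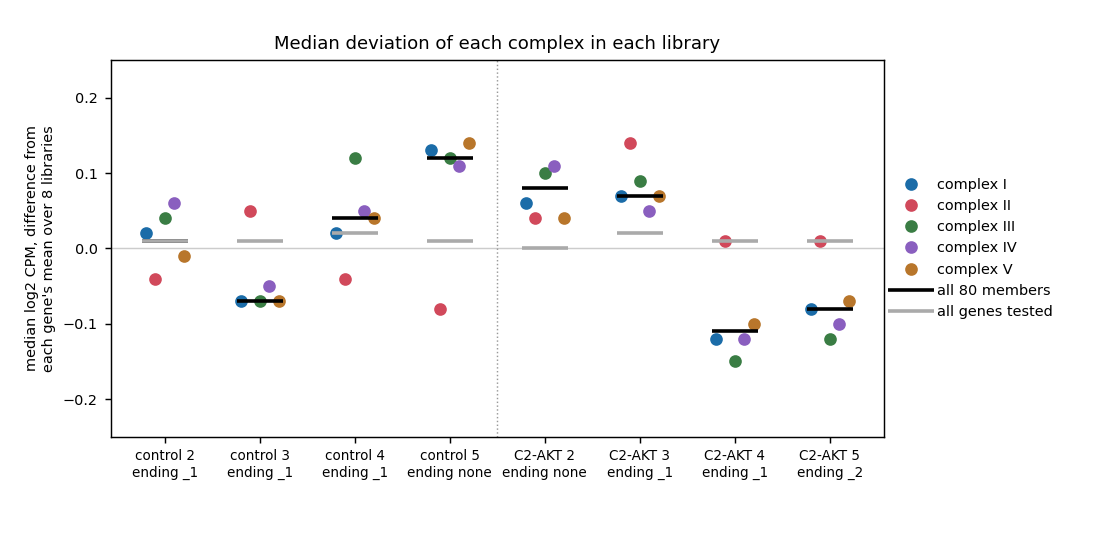
Points are the median deviations of log2 CPM from each gene's mean over 8 libraries, for each complex (colours), all 80 tested subunits (black bars) and all 15686 genes tested (grey bars), with the ending of each library's title below its name. Control replicate 5 and C2-AKT replicates 2 and 3 are high and C2-AKT replicates 4 and 5 low for complexes I, III, IV and V, while complex II lies apart in control replicates 3 and 5 and C2-AKT replicates 4 and 5.

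Part of the spread followed the ending of the library titles. Control replicate 5 and C2-AKT replicate 2, whose titles have no ending, were compared with the 5 libraries ending in "_1", with genotype and ending as terms of the edgeR fit. The comparison was added after the data had been seen. Over all genes 312 (1.99%) were higher and 1304 (8.31%) lower in the 2 libraries without an ending. Of the 80 subunits, 2 (2.5%) were higher and 5 (6.25%) lower, shares near those of all genes. Most of the called subunits were lower, but the median log2 fold change by title ending was 0.12 over the 80, against -0.00 over all genes. For complexes I to V it was 0.12, -0.03, 0.15, 0.12 and 0.10. An unadjusted edgeR p under 0.05 was found for 29 of the 80, against 4392 of all 15686 genes. The 7 called subunits are described here because they passed this comparison. Of these, Atp5d, Ndufb8, Uqcrfs1, Ndufs7 and Ndufb4 were named after their values were seen.

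Atp5d, the δ subunit of the ATP synthase, was at 69.8 CPM in control replicate 5 and 76.5 CPM in C2-AKT replicate 2, and at 127 to 156 CPM in the other 6 libraries. No library of either set lay in between, and the log2 fold change was -0.95 ± 0.11 (SE; edgeR adjusted p = 0.00238). Ndufb8, an accessory complex I subunit widely used as a marker of assembled complex I, was at 40.4 and 43.7 CPM in the libraries without an ending and 61.7 to 75.9 CPM in the others (log2 fold change -0.75 ± 0.10, SE; edgeR adjusted p = 0.00433). The values of Sdhc given above corresponded to -0.66 ± 0.08 (SE; edgeR adjusted p = 0.00321).

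In complex III the core protein Uqcrc1 was at 99.3 and 107 CPM in the libraries without an ending and 136 to 160 CPM in the others, with a log2 fold change of -0.54 ± 0.09 (SE). The Rieske iron-sulfur protein gene Uqcrfs1 was at 106 and 105 CPM, against 118 to 145 CPM, with one of -0.39 ± 0.08 (SE). In the other direction, Ndufs7, a core complex I subunit that carries an iron-sulfur cluster, was at 47.9 and 45 CPM, against 29.6 to 38.7 CPM. Ndufb4 was at 50.4 and 49.6 CPM, against 33.2 to 43.3 CPM. The title ending is spread over both genotypes, 1 library without an ending in each, and a fit of genotype with the ending as a term also called 0 subunits (smallest adjusted p 0.641).

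The number of subunits called by title ending depended on single libraries. Leaving out control replicate 5 or C2-AKT replicate 2 leaves 1 library without an ending, which is then assumed to vary like the others. Without control replicate 5, 0 of them passed (smallest edgeR adjusted p 0.0559). Without C2-AKT replicate 2, or without control replicate 2, the 4 that passed were Atp5d, Ndufb8, Sdhc and Uqcrc1. C2-AKT replicate 5, the single library ending in "_2", has a term of its own and does not bear on the comparison. Across genes, the change by title ending went with the GC content of the transcripts: Spearman's rho was -0.50 over the 14622 of 15686 genes with a GC value and -0.34 over 79 of the 80 subunits, which share the same libraries. The median GC content was 55.3% for the 5 lower subunits, 55.9% for the 2 higher ones and 51.9% for all tested subunits. The part of GC content in these differences was not tested.

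**Figure D5:**
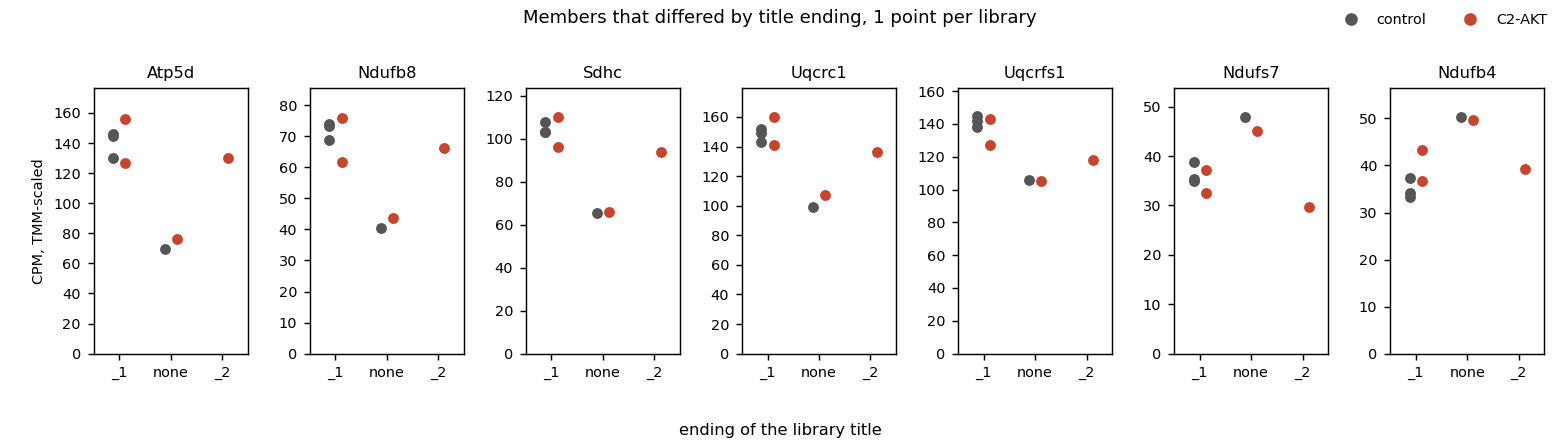
Points are single libraries (grey, control; red, C2-AKT), with CPM after TMM scaling against the ending of the library title, for the 7 subunits that differed by title ending. The 2 libraries without an ending are the lowest for Atp5d, Ndufb8, Sdhc, Uqcrc1 and Uqcrfs1 and the highest for Ndufs7 and Ndufb4, while the single library ending in "_2" lies with or near those ending in "_1".

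Some levels are uncertain because the genes resemble or overlap others. Of the 84 subunits with transcripts in GENCODE M21, 53 share no stretch of 100 bases with another gene, 16 share more than 10% of their stretches, and 1, Atp5l, shares more than 50% (69% of them, most with Gm10221). Exons of 22 subunits overlap a gene on the opposite strand and those of 4 a gene on the same strand. The sources used here do not say whether the counting used strand.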

How the data were processed

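Poly-A RNA from 8 mouse livers was sequenced. The submitters' processing notes name HISAT2 2.1.0, StringTie 2.1.3b, Trimmomatic and bcl2fastq 2.20.0, and the builds mm10 and GRCm38. The counting method and the strand setting were not given in these sources. The authors deposited a gene table with counts per gene, and per the file headers also FPKM and TPM, both scaled to transcript length and library size. The deposited counts were rounded to whole numbers. Depth was 51.4 M to 63.8 M counts per library.

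Genes were kept with edgeR's filterByExpr, which left 15686, and were scaled by TMM. C2-AKT and control libraries were compared with edgeR 4.0.16 in R 4.3.3 by its two-sided quasi-likelihood test, and p-values were adjusted over all genes tested (Benjamini-Hochberg). The SE was taken as log2 fold change over the square root of F. The 6 subunits that failed the filter (Cox4i2, Cox6a2, Cox6b2, Cox7b2, Cox8b and Cox8c) were described only. The model held genotype alone, as no label states that replicate numbers pair animals. Floors of 3 counts cover counting error only.

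Alternatives were DESeq2 1.42.0 size factors and Wald test, library totals alone, upper-quartile factors, library sizes without acinar markers, no filter, a mean of at least 1 CPM, limma 3.58.1 (voom, and on log2 of FPKM + 1, FPKM + 0.1 and TPM + 1), a replicate block, the title ending as a term, titles ending in "_1" only, and each library left out. The comparison by title ending was chosen after seeing the data. Subunits were named where they were called, did not overlap between groups, had 1 of the 3 smallest p-values or the highest or lowest mean TPM of their complex, belonged to an isoform family or failed the filter; from each related list up to 3 genes with the smallest p were eligible, not all of which are printed, and Ppargc1a, Ppargc1b, Nrf1, Esrra and Tfam always. Genes outside this rule were chosen after their values were seen, namely those of the title ending comparison, Atp5a1, Ndufb4b and Ndufb4c. COX1, Atp5l, Cox5a, Cox5b and Cox7c were also named outside it. The subunits and lists were chosen with earlier results of these data known. Promoter windows and coordinates are from RefSeq for GRCm38.p6, and shared stretches and GC content from GENCODE M21 transcripts. Protein sequences of the isoforms were not used here.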

Additional observations from a re-analysis of the deposited data

Results flagged for a closer look

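Among 78 groups of 4 values checked (the named subunits and the complex medians, in each genotype), 5 held a library whose gap to its nearest neighbour was above Dixon's 95% critical value, as a part of the range of the group. Chance gives about 1 such group in 20. The groups of a genotype share the same 4 libraries, so they are not independent, and the count cannot be weighed against that rate. Ndufb8 and Uqcrfs1 are among the subunits named after their values were seen, which makes their count here no independent observation. Without the subunits so named, it was 3 of 68 groups.

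In 4 of them the library was control replicate 5, one of the 2 without a title ending. Ndufb8, the accessory complex I subunit, stood at 40.4 CPM there and at 68.9 to 73.9 CPM in the other 3 controls. Sdhc, a membrane anchor of complex II, was at 65.4 CPM, against 103 to 108 CPM. The complex III core protein Uqcrc1 was at 99.3 CPM, against 143 to 152 CPM. The Rieske protein gene Uqcrfs1 was at 106 CPM, against 138 to 145 CPM. The fifth was Uqcrq, a small subunit of complex III, at 145 CPM in control replicate 3 and 164 to 166 CPM in the other controls.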

How the results depend on the processing

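Under all 22 other settings 0 subunits were called higher or lower in C2-AKT livers. Each of the 614 recomputed log2 fold changes of the 28 named and tested subunits stayed within 1 SD of its reported value. That bound can be loose for a rare subunit: Cox7a1 went from 0.01 to -0.16 with limma-voom and counts as within it. The smallest adjusted p of any subunit was 0.619, without control replicate 5. The median over the subunits ranged from -0.08 to -0.01. DESeq2's Wald test called 29 genes of the whole table higher and 28 lower, against 0 and 4, and 1 gene of the related lists higher (Esrrg). With the title ending as a term 1 gene was higher, and with only titles ending in "_1" 17 genes were lower. Leaving out 1 library gave 0 to 3 genes higher and 1 to 16 lower, with 1 lower without control replicate 2 and 16 without C2-AKT replicate 2.

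By title ending, against 2 subunits higher and 5 lower, upper-quartile factors gave 7 higher and DESeq2's Wald test 6. Library totals alone gave 0 higher and 10 lower, with the median of all genes at -0.12. The values of limma on log2(FPKM + 1) and log2(FPKM + 0.1) gave 1 higher and 10 lower each, and on log2(TPM + 1) 1 and 14. Leaving out 1 library gave 0 to 2 higher and 0 to 5 lower. The cause of these differences was not tested. Same-numbered libraries did not deviate together from their group means (correlations -0.13, -0.02, 0.07 and -0.06 for numbers 2 to 5). The largest correlation between groups was 0.3, for control replicate 5 with C2-AKT replicate 2, the libraries without a title ending. Matched animals need not deviate together across all genes, so these values do not settle whether the numbers pair animals. With the replicate number as a block 0 subunits were called by genotype. By title ending 0 were called higher and 0 lower with that block. Genotype, ending and block together then take up nearly as many terms as there are libraries. That fit therefore cannot show whether the differences by title ending depend on the replicate number. Depth bears most on the rare subunits: the 6 that were not tested, Cox7a1, Ndufa4l2, and Ndufb4b with 83 to 139 counts in a library.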
